A study of Mus musculus with 2 samples.

Results

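The genes described here are the 8 that encode the natriuretic peptides, their receptors and the proteases that cut their precursors: Nppa, Nppb and Nppc, Npr1, Npr2 and Npr3, and Corin and Furin. They were chosen by gene symbol, and all 8 were found among the 55536 annotated genes of the deposited gene tables. Total RNA was sequenced from the hearts of male B6CASTF1/J mice, the first-generation cross of C57BL/6J and CAST/EiJ, at 18 to 20 months of age and with no treatment named. The 2 libraries, biological replicates 1 and 2, form 1 group, and the data hold no second condition. They carry separate sample identifiers and the same donor identifier. Any p-value below therefore measures only the difference between these libraries, which may be technical. Each library was made from 300 ng of heart RNA, and the labels do not say which chambers or how many animals went into it.

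Natriuretic peptides are hormones that heart muscle releases when its wall is stretched. Atrial natriuretic peptide (from Nppa) and B-type natriuretic peptide (from Nppb) are made by cardiomyocytes, in healthy hearts mostly of the atria, and C-type natriuretic peptide (from Nppc) acts close to the cells that make it. Their precursors are cut by the proteases corin and furin, and the peptides act through receptors that make cyclic GMP, which relaxes vessels and promotes salt excretion, or are removed by a clearance receptor.

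All natriuretic peptides share a ring closed by a bond between a pair of cysteines, and the bases that encode it are shown for Nppb and Nppc, the detected and the barely detected of these 2 genes, because the ring is what their products have in common. In each the ring took 17 codons, or 51 bases, of exon 2 of 3, from the codon of the first ring cysteine to that of the second. Nppb is at chr4:147985788-147987205 on the plus strand of mm10, with its ring at chr4:147986464-147986514, codons 99 to 115 of 121. Nppc is at chr1:86666291-86670571 on the minus strand, with its ring at chr1:86669667-86669717, the last codons, 110 to 126. Nppa is at chr4:148000722-148002079 on the plus strand. The sequences are those of the GENCODE M21 transcripts, written 5′ to 3′ on the coding strand, and capitals mark the 40 of 51 bases that are identical in both.
Nppb: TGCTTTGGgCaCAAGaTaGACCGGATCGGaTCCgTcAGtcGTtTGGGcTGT
Nppc: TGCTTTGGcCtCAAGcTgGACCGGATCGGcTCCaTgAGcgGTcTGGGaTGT
Over the whole transcripts of the 3 peptide genes, the longest stretch shared by any pair was 12 bases, between Nppa and Nppc. No read-length stretch was therefore common to 2 of the peptide genes.

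Levels are given as TPM, deposited values that are scaled for transcript length and summed to a fixed total, so they can be compared between genes. Nppa stood at 769 TPM in replicate 1 and 415 in replicate 2, a mean of 592 ± 250.3 (SD, n = 2). It ranked 82nd among 22015 nuclear protein-coding genes. Nppb followed at 125 and 156 TPM, a mean of 140.4 ± 21.8, and ranked 401st. Nppc was at the limit of detection: it was listed at 0 TPM in replicate 1 and at 0.07 in replicate 2, from 0 and 2 counts. A count of 0 allows up to 3 counts, so both libraries were under that limit and no ratio is given. Intervals and limits of this kind cover counting error only.

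The proteases came next. Corin, the transmembrane serine protease of cardiomyocytes that activates the precursor of atrial natriuretic peptide, is at chr5:72300025-72504473 on the minus strand. Its level was 47.3 TPM in replicate 1 and 40.7 in replicate 2, a mean of 44.0 ± 4.65. Furin, the ubiquitous convertase that cuts the precursors of the B-type and C-type peptides among many others, is at chr7:80388585-80405436 on the minus strand. It had 41.3 and 29.5 TPM, a mean of 35.4 ± 8.34, and its range overlapped that of Corin. Corin held 53.4% of the summed TPM of the pair in replicate 1 and 58.0% in replicate 2.

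The receptors were the lowest of the detected genes. Npr2, the receptor guanylyl cyclase for C-type natriuretic peptide, is at chr4:43631935-43651244 on the plus strand and stood at 16.0 and 15.3 TPM, a mean of 15.6 ± 0.502. Npr3, the clearance receptor, which lacks a cyclase domain, is at chr15:11839896-11907287 on the minus strand and stood at 10.4 and 8.31 TPM, a mean of 9.37 ± 1.49. Npr1, the receptor guanylyl cyclase for the atrial and B-type peptides, is at chr3:90450591-90465866 on the minus strand and stood at 6.77 and 5.68 TPM, a mean of 6.23 ± 0.771. The 3 receptors did not overlap in TPM. The receptor of the peptide that was barely detected was thus the most abundant of them, in both libraries. Npr2 held 48.2% and 52.2% of the summed receptor TPM, Npr3 31.4% and 28.4%, and Npr1 20.4% and 19.4%. By expected counts, which are not scaled for length, Npr3 had 1498 and 1207 and Npr2 1502 and 1356, so these were closer than the TPM. The deposited effective length was 3041 and 2892 bases for Npr2 and 4659 and 4737 for Npr3.

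The order of mean TPM was Nppa, Nppb, Corin, Furin, Npr2, Npr3, Npr1 and Nppc, and it was the same in the second deposited quantification of these libraries, a transcript table summed per gene. Corin and Furin were the only neighbours in that order whose libraries overlapped in the gene table. In the second table Corin, at 59.8 and 50.1 TPM, and Furin, at 41.5 and 32.9, did not overlap. By either quantification, 7 of the 8 genes reached 1 TPM in both libraries, and Nppc did not.

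**Figure D1:**
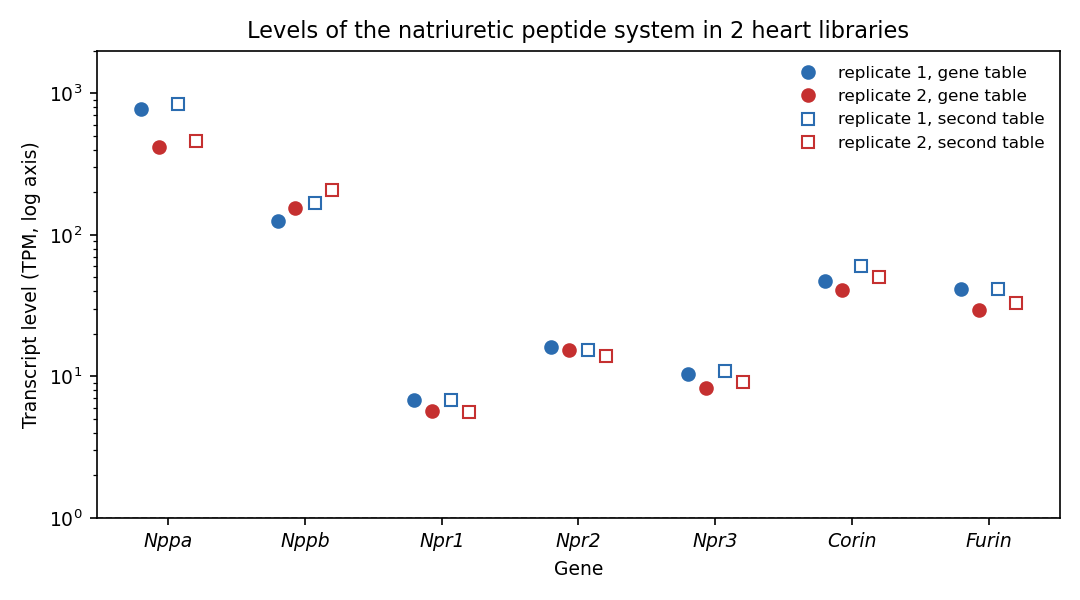
TPM of the natriuretic genes on a log axis in replicate 1 (blue) and replicate 2 (red), from the gene table (filled circles) and the second table (open squares). Nppa and Nppb lie above 100 TPM in every case, the receptors lie between 5.62 and 16.0 TPM, and Nppc, under 1 TPM, is not drawn.

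The libraries held 38858481 expected counts on annotated genes in replicate 1 and 37281459 in replicate 2, so each detected gene rested on at least 617 counts per library. Ratios between the libraries are given as the log2 of replicate 2 over replicate 1, from expected counts with library sizes scaled by TMM, a trimmed mean of gene ratios, and were tested by an exact binomial test over the 12189 genes averaging at least 1 TPM. It sets 1 library against the other and says nothing of conditions. The median log2 ratio of the 12189 genes was -0.02, and the central 95% ran from -0.66 to 0.56. Heart muscle was well represented: 9 of 10 ventricular muscle markers reached 1 TPM in both libraries, led by Myl2, the ventricular regulatory myosin light chain, at 9599 and 8366 TPM, and Hand1 was listed at 0. Of the atrial muscle markers 17 of 19 did, and none was at 0.

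Nppa and Nppb, neighbours on chromosome 4 with 13516 bases between the end of Nppb and the start of Nppa, differed between the libraries in opposite directions. Nppa had 18176 expected counts in replicate 1 and 9744 in replicate 2, and was 1.70-fold higher in replicate 1. Its log2 ratio was -0.76 (95% counting interval -0.80 to -0.73), which lay outside the central 95% of all genes. Only 2.96% of the genes tested had a ratio as far from 0, and 1.72% of the 641 genes averaging at least 100 TPM did. Nppb had 2629 and 3257 expected counts and was 1.36-fold higher in replicate 2, with a log2 ratio of 0.45 (0.37 to 0.52) and an adjusted p of 1.41e-30 in the exact binomial test. A ratio as far from 0 was found in 8.5% of all genes tested and in 5.15% of those of at least 100 TPM. Within a library, the TPM of Nppa was 6.16 times that of Nppb in replicate 1 and 2.66 times in replicate 2, and this ratio does not depend on how the libraries are scaled. Nppa therefore held 86.0% of the summed peptide TPM in replicate 1 and 72.7% in replicate 2. In whole-tissue RNA, fewer cells of a type and less RNA per cell cannot be told apart.

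The receptors and proteases differed less. Furin had 4980 and 3794 expected counts and was lower in replicate 2, with a log2 ratio of -0.26 (-0.32 to -0.19) and an adjusted p of 4.58e-15 in the exact binomial test, and 22% of all genes lay as far from 0. Npr3 was lower in replicate 2 as well, with a log2 ratio of -0.17 (-0.29 to -0.06) and an adjusted p of 0.00954 by the same exact test, and 36.2% of genes lay as far. With library sizes scaled by spike-ins its ratio was -0.08, with an adjusted p of 0.289 in the exact test. Npr1 had 676 and 617 expected counts and a log2 ratio of 0.01 (-0.15 to 0.16), and Npr2 had a log2 ratio of -0.01 (-0.12 to 0.10). Corin, with 6517 and 5805 expected counts, had a log2 ratio of -0.03 (-0.08 to 0.02). The adjusted p of the exact test was 0.988 for Npr1, 0.930 for Npr2 and 0.447 for Corin, and none of their counting intervals reached beyond 0.16 on the log2 scale in either direction. The ratio of Corin changed side with the scaling, from -0.11 with total counts to 0.065 with spike-ins, and passed the test in both cases.

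The ratio of the deposited TPM is another quantity than the ratio of scaled counts. For all 7 genes tested the log2 ratio of scaled counts was 0.13 higher than that of TPM once the change in effective length was taken off, which is the difference between the 2 ways of scaling the libraries. For Nppa, whose single transcript had an effective length of 766 bases in both libraries, the log2 ratio was -0.89 by TPM and -0.76 by counts, and for Nppb, at 682 bases, it was 0.32 and 0.45. For Npr1 the effective length also differed, at 3234 bases in replicate 1 and 3544 in replicate 2, and its log2 ratio was -0.25 by TPM and 0.01 by counts. For Furin, at 3906 and 4191 bases, it was -0.48 and -0.26.

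Read against all genes, 4 of the 7 genes tested passed the exact test, where 26.6% of all 12189 genes did. In 1 direction, 3 were lower in replicate 2 (background 15.9%) and 1 was higher (background 10.7%). None differed by 2-fold or more, a size reached by 1.67% of all genes. At 100 TPM or more, where Nppa and Nppb lie, 74.7% of genes passed the exact test, so a pass there was close to the rule, and the size of a ratio says more than its test.

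**Figure D2:**
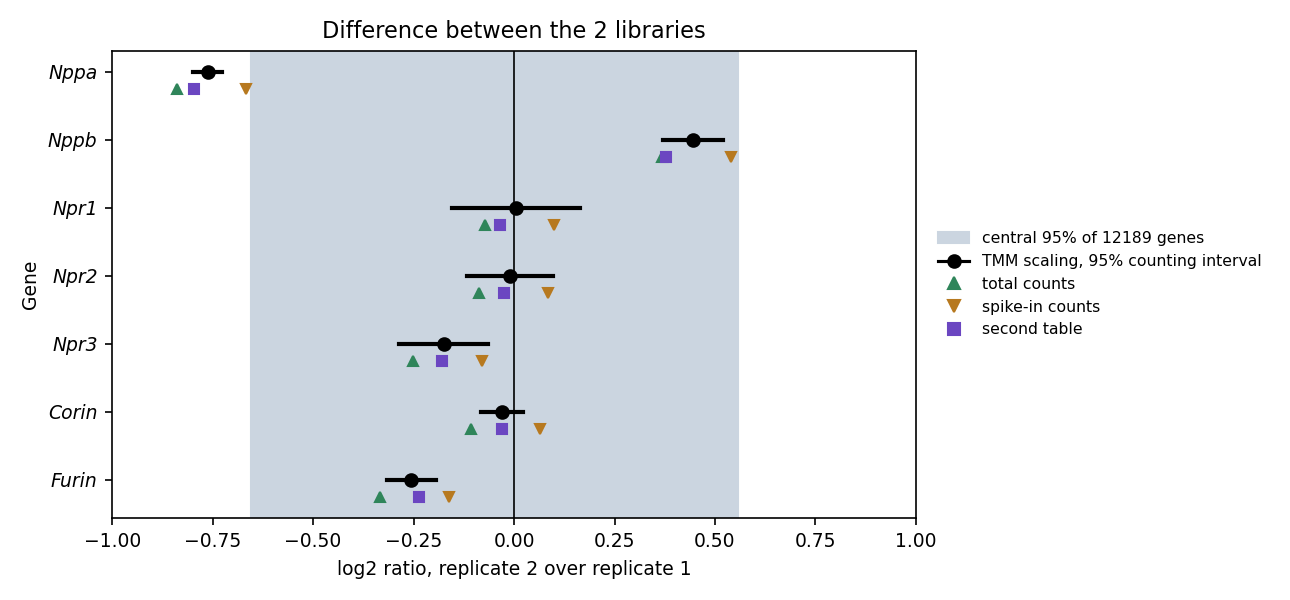
Log2 ratio of replicate 2 over replicate 1 for the 7 natriuretic genes tested, with TMM scaling and its 95% counting interval (black), total counts, spike-in counts and the second table, over the central 95% of 12189 genes (shaded). Nppa lies left of the shaded range at every scaling, from -0.84 to -0.67, Nppb lies between 0.37 and 0.54, and Nppc is not drawn because it had 0 and 2 counts.

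Other genes of atrial muscle were lower in replicate 2 together with Nppa. Of the 16 atrial markers tested beside Nppa, 9 were lower in replicate 2 by the exact test and 3 were higher. The shares over all genes tested were 15.9% and 10.7%. The median log2 ratio of the 16 was -0.37 against -0.02 over all genes. Myl4, the atrial essential myosin light chain, had 307 TPM in replicate 1 and 209 in replicate 2 (log2 ratio -0.41), and Myl7, the atrial regulatory light chain, had 243 and 164 (-0.44). Sln, which encodes the calcium pump inhibitor sarcolipin, had 34.6 and 25.3 TPM (-0.33). Bmp10, a growth factor of atrial muscle, had 18.5 and 1.55 TPM (-3.44) and the iron hormone gene Hamp had 4.97 and 1.95 (-1.12). Bmp10 and Hamp were the only markers of this list with a ratio below that of Nppa. Not every marker was lower by counts: Cav1, the caveolae gene, had 81.0 and 85.7 TPM (0.15), and Chrm2, the muscarinic receptor gene, had 30.03 and 29.7 (0.12). By TPM, Chrm2 was slightly lower in replicate 2. Tbx5, chosen after its values were seen, was the third called higher, at 7.45 and 7.76 TPM (0.20). In the second table Tbx5 had 10.2 and 9.75 TPM. Set against Myl7 within each library, the TPM of Nppa was 3.17 times as high in replicate 1 and 2.54 times in replicate 2. Against Myl4 it was 2.51 and 1.99 times as high, so Nppa differed by more than these light chains did. The summed TPM of the 16 markers was 842 in replicate 1 and 609 in replicate 2.

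Other lists differed between the libraries too. Of 11 white adipocyte markers tested, 8 were at least 2-fold lower in replicate 2. Over all genes 1.67% differed by 2-fold or more in either direction. Among the 8 were the complement protease gene Cfd at 20.02 and 2.63 TPM and the fatty acid synthase gene Fasn at 16.7 and 2.74. The 8 include Retn, at 2.05 and 0.04 TPM, which reached a mean of 1 TPM only through replicate 1. The other 3, Lpl (log2 ratio 0.15), Fabp4 (0.09) and Plin4 (0.07), the most abundant of the list, were higher in replicate 2 by the exact test. By TPM all 3 were slightly lower in replicate 2. Lpl had 1367 and 1341, Fabp4 216 and 207, and Plin4 47.7 and 45.9. The list median was -1.97 and its summed TPM 1709 and 1610, most of it from Lpl, which heart muscle also expresses. Of 8 blood cell markers tested, 6 were lower and none higher by the exact test, against 15.9% and 10.7% of all genes. Their summed TPM was 10953 and 7104, most of it from the globin genes, whose near-identical copies share reads. The part of the atrial, adipocyte and blood values in the ratio of Nppa was not tested.

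Nppb differed in the same direction as several genes of the hypertrophy and wall stress list, which heart muscle raises under load. With Nppb included, the median of the list was 0.35, and 0.22 in the second table. Over the 8 other genes tested it was 0.26. Of the 8 genes tested beside Nppb, 5 were higher in replicate 2 by the exact test and 3 were lower, Nppa among the latter. Over all genes tested 10.7% were higher and 15.9% lower, and 74.7% of those of at least 100 TPM passed. Ankrd1, a stretch-responsive sarcomere gene, had 346 and 436 TPM (log2 ratio 0.42), Xirp2, a gene of the intercalated disc, had 126 and 155 (0.43), and Acta1, the skeletal actin gene, had 170 and 239 (0.62). The TPM of Nppb was 0.361 times that of Ankrd1 in replicate 1 and 0.357 times in replicate 2, nearly the same in both. Myh7, the beta myosin heavy chain gene, had 745 and 738 TPM but a log2 count ratio of 0.35, and it shares sequence with Myh6. The others, chosen after their values were seen, were Fhl1 (0.17), Ccn2 (-0.46) and Rcan1 (-0.15). Fhl1 had 55.7 and 50.7 TPM, so like Myh7 it was lower in replicate 2 by TPM and higher by counts. Wall stress itself was not measured.

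The protein-coding genes with TPM most like those of Nppb in both libraries were Xirp2, Gstm1 and Txlnb, at distances of 0.01, 0.09 and 0.13 in the plane of log2(TPM + 1) over 2 libraries. For Nppa, Hsp90ab1 and Rpl41 were among the 3 nearest, at 0.34 and 0.38. For the other genes the nearest lay within 0.03 and included Stard3nl for Npr1, Rc3h1 for Npr2, Cdkal1 for Npr3, St6galnac6 for Corin and Hk1 for Furin. With 2 libraries such likeness is a matter of level and 1 ratio.

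**Figure D3:**
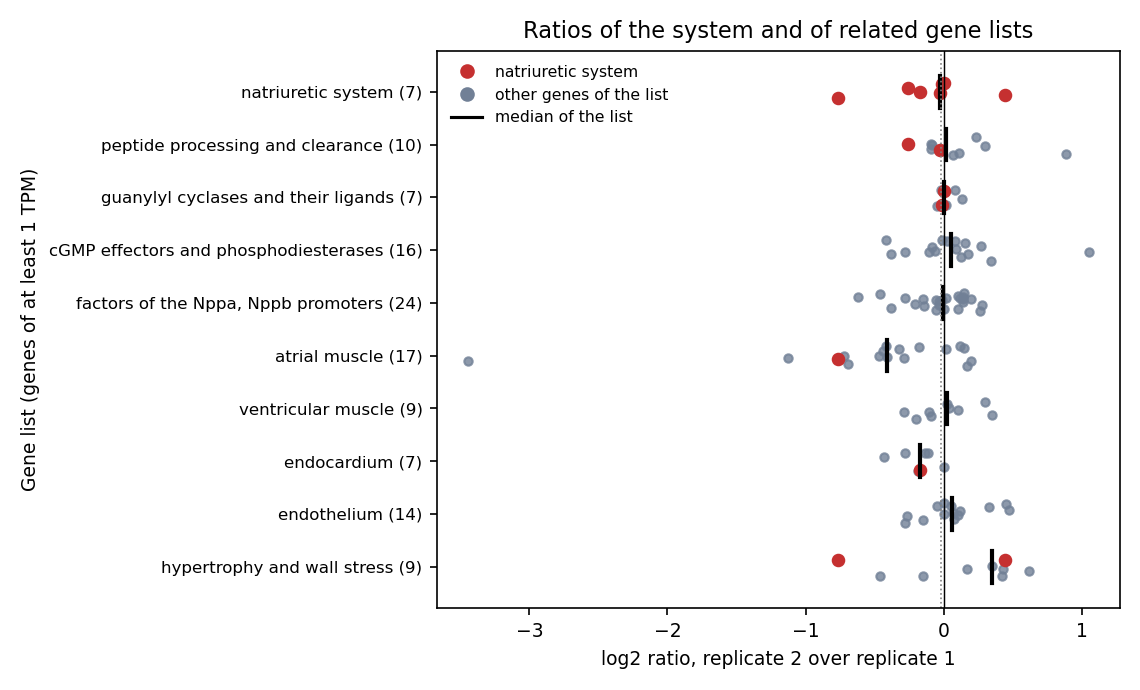
Log2 ratio of replicate 2 over replicate 1 for each gene tested in the gene lists, 1 point per gene (red for the natriuretic genes, grey for the others), with a black bar at each list's median, a solid line at 0, a dotted line at the median of all genes and the number of genes in brackets. The median is -0.41 for atrial muscle, Nppa included, and 0.35 for hypertrophy and wall stress, Nppa and Nppb included. Most other list medians lie near 0.

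The other genes on chromosome 4 around Nppb and Nppa had ratios nearer to 0. Of 6 neighbours tested, Mfn2, the mitochondrial fusion gene, had 251 and 246 TPM (log2 ratio 0.04), Plod1, a collagen lysyl hydroxylase, had 26.3 and 20.0 (-0.31), and Agtrap, which encodes a binding protein of the angiotensin receptor, had 19.3 and 16.1 (-0.01). All 6 neighbours lay between -0.31 and 0.32, inside the range set by Nppa and Nppb. An annotated antisense gene, Gm13054, overlaps Nppa by 989 bases at chr4:148001091-148004014 on the minus strand and had 9 and 4 expected counts. Genes overlapping the other members had at most 3 counts in a library.

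Transcription factors linked to the Nppa and Nppb promoters were all detected, 24 of 24, with log2 ratios from -0.62 to 0.28. By the exact test 6 were lower and 7 higher in replicate 2, against 15.9% and 10.7% of all genes tested. The ratios went both ways, with a median of 0.00. Gata4, the zinc finger factor that binds both promoters, had 41.8 and 42.5 TPM (log2 ratio 0.14). Gata6, another GATA factor, had 27.65 and 18.2 TPM (-0.38) and was lower by the exact test. It was chosen after its values were seen. Tead1, the factor of the muscle CAT element, had 62.6 and 62.2 (0.12), and Srf, the serum response factor, had 35.6 and 34.2 (-0.06). Esrra had 71.7 and 54.7 (-0.28), Mef2a 54.3 and 51.6 (-0.01) and Mef2d 48.4 and 49.9 (0.14). The factors furthest below 0 were Hand2, at 33.5 and 19.9 TPM (-0.62), and Klf13, at 17.3 and 11.5 (-0.46), both chosen after their values were seen.

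The promoters of the adjacent genes are shown with the core letters that GATA factors bind, GATAA, searched on both strands. Promoter windows are those of RefSeq on GRCm38.p6, of which 32851 were searched over the 250 bases before the start site. The motif occurred 2 times in Nppa and 2 times in Nppb, and in none of the other 6 genes. In all promoters, 22.6% held it at least once and 4.28% at least 2 times. The whole Nppa window, chr4:148000472-148000721 on the plus strand, is given first. Then follow 30 bases around the Nppb pair, chr4:147985800-147985829 on the plus strand, which lie before the RefSeq start but within the first exon of GENCODE M21. Capitals mark GATAA or its reverse complement TTATC.
Nppa: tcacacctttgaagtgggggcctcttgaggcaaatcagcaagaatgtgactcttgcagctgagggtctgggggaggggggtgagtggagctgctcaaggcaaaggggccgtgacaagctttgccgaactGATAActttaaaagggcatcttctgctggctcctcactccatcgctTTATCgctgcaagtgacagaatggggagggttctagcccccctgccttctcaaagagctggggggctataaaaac
Nppb: gcagctGATAAatcagaGATAAccccaccc
The matches began 121 and 75 bases before the start site of Nppa and 94 and 83 bases before that of Nppb. TATAAA, the TATA box letters, occurred 1 time each in Nppa, Nppb, Nppc and Furin, and in 12.4% of all promoters. GGAATG, the core of the site bound by TEAD factors, occurred 1 time in Nppb alone of the 8, and in 12.6% of all promoters. AAGTG, the core of the site bound by Nkx2-5, occurred 2 times in Nppa and 4 times in Furin, and in 40.7% of all. Such matches describe letters and not bound sites.

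Among the genes for precursor processing and peptide breakdown, 10 of 16 were tested, of which 2 were lower and 2 higher in replicate 2 by the exact test. The shares over all genes were 15.9% lower and 10.7% higher. Besides Corin and Furin, the most abundant was Ide, the insulin-degrading enzyme, which can also cut natriuretic peptides, at 39.1 and 37.6 TPM (log2 ratio -0.09, lower by the exact test). Pcsk6, a furin relative that activates corin, had 14.04 and 13.4 TPM (-0.09), and Mbtps1, another convertase, had 11.1 and 11.3 (0.11). Mme, which encodes neprilysin, the main enzyme that breaks natriuretic peptides down, had 6.07 and 6.36 TPM and was higher in replicate 2 (0.23, adjusted p of 0.0106 in the exact test). The other gene counted as higher, Fap, chosen after its values were seen, had 0.87 and 1.57 TPM and was tested only because of its level in replicate 2. Ostn, whose product binds the clearance receptor, was under 1 TPM in both libraries.

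Of the guanylyl cyclases and their ligands, 7 of 16 were tested, the membrane cyclases Npr1 and Npr2 included, and none passed the exact test. Over all genes tested, 26.6% did. The subunits of the soluble cyclase that nitric oxide activates were near Npr1 in level: Gucy1a1 had 6.06 TPM in both libraries and Gucy1b1 4.83 and 4.48. Nos3, the endothelial nitric oxide synthase gene, had 9.09 and 8.44 TPM. The intestinal receptor gene Gucy2c was listed at 0 in both.

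Of the genes that carry the cyclic GMP signal on or end it, 16 of 24 matched were tested, with a median of 0.05. By the exact test 4 were lower and 2 higher, against 15.9% and 10.7% of all genes. The most abundant were the phosphodiesterase genes Pde1c, at 34.4 and 26.9 TPM (log2 ratio -0.11), and Pde3a, at 26.8 and 23.4 (-0.06). Rgs2, a brake on G protein signalling that the cyclic GMP kinase activates, had 12.7 and 8.78 TPM (-0.38). Pde11a, a phosphodiesterase gene, was 2-fold higher in replicate 2, at 1.51 and 3.07 TPM (1.05). Pde6d, at 20.0 and 15.1 TPM (-0.28), and Pde1c and Rgs2 were among those that passed as lower. The other genes that passed, chosen after their values were seen, were Prkg1, the cyclic GMP kinase itself, at 4.52 and 4.78 TPM (0.27), and Pde3b (-0.42). Pde5a and Pde9a, which break down cyclic GMP selectively and were likewise chosen after their values were seen, had 1.21 and 1.76 TPM and 1.52 and 1.85 TPM, and neither passed. In the second table Pde5a had 3.13 TPM in replicate 1 and 1.41 in replicate 2, the opposite direction.

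The receptors and proteases are made as several transcripts, and the tables did not always split them alike. The leading transcript of every gene was the same in both tables. Npr3-201 held 53.3% of the gene's TPM in replicate 1 and 55.6% in replicate 2, and Npr3-205 33.0% and 25.8%. These encode 536 and 535 codons that match over the first 470 and the last 64, and the second table gave nearly the same share, 55.0% and 53.4%, for Npr3-201. Npr1-201 held 77.5% and 87.3%, and the transcripts of Npr1 that do not encode a protein held 22.5% in replicate 1 and 12.7% in replicate 2. In the second table the latter held 18.0% and 8.80%. These shares rest on few counts of short transcripts, of 643 to 949 bases against 4066 for Npr1-201. In the first table none had more than 20.8 expected counts in a library, where Npr1-201 had 642 and 603. Npr2-201, of 1047 codons, held 76.8% and 68.7% in the first table and 88.8% and 87.5% in the second.

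The split of the proteases differed more between the tables. Corin-201 held 77.6% and 74.9% in the first table and 37.9% and 47.7% in the second. Corin-202 took 21.9% and 29.3% in the second table and Corin-207 30.1% and 12.1%. Corin-201 and Corin-202, of 1113 and 1047 codons, share the last 1024, which lie after the divergent start. Furin-203 held 90.2% and 99.3% in the first table and 78.3% and 63.8% in the second, where Furin-201 took 14.2% and 28.4%. Furin-203 and Furin-201 encode the same 793 codons, so their split does not alter the protein.

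**Figure D4:**
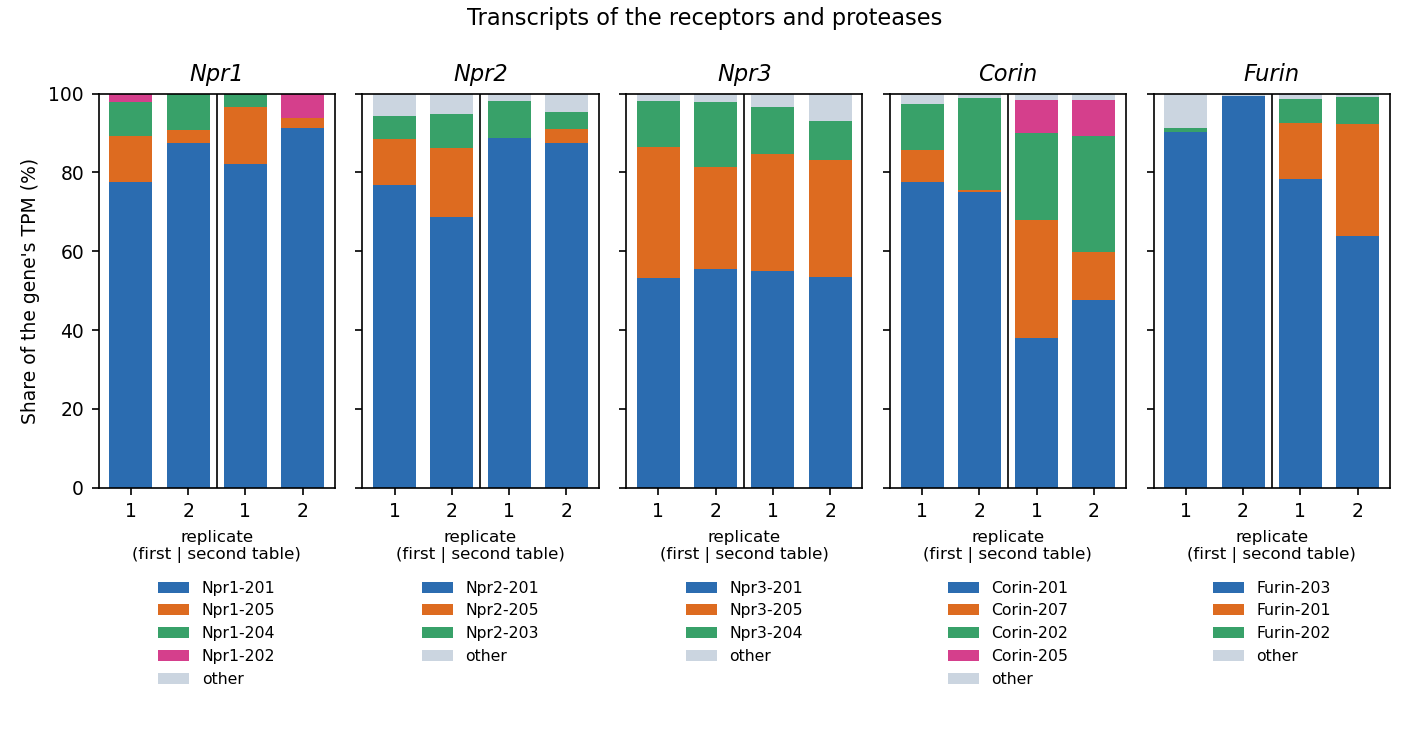
Share of each gene's TPM by transcript (percent) for the receptors and proteases, with replicates 1 and 2 of the first table left of the line and of the second table right of it. Npr3-201 is between 53.3% and 55.6% in all 4 bars, and Npr3-205 is between 25.8% and 33.0%. Corin-201 is at 77.6% and 74.9% in the first table and at 37.9% and 47.7% in the second.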

How the data were processed

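Total RNA of 2 heart libraries was analysed. The deposited file list names mm10 as build and GENCODE M21 as annotation. The quantification tools are not given in the sources used here. The authors deposited expected counts and TPM per gene and per transcript, and a second transcript quantification with estimated counts and TPM. Spike-ins, phiX and 26248 entries named only by number (1.94 and 1 counts) were left out. Depth was 38858481 and 37281459 expected counts.

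Expected counts were rounded. TMM scaling used edgeR 4.0.16 in R 4.3.3, and log2 ratios a prior count of 2. The main comparison was an exact binomial test between the libraries, two-sided, with Benjamini-Hochberg adjustment at 0.05. With 2 libraries of 1 group no fit for conditions was possible, so edgeR's quasi-likelihood test was not used. The edgeR biological coefficient of variation was 11.1% over 14734 genes. Shares of expected counts were given exact Clopper-Pearson intervals, which are not printed, and shares of TPM have none. The binomial step, in Python 3.11.15, was tested on simulated counts that held counting error only. That simulation cannot show how the test behaves when libraries differ by more than counting error. Alternatives were total counts, DESeq2 1.42.0 size factors, spike-ins, the second table, other prior counts and TPM filters.

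Named genes are the 8 members, up to 6 of highest mean TPM and any of at least 2-fold in each list, the leading transcripts and those of at least 20%, and the 3 nearest genes in level. The members and lists were chosen with earlier results of these data known. Symbols missing from the tables (Irag1, Kiaa2013 and Ctgf, the last also listed as Ccn2) were left out. Promoters came from RefSeq, GRCm38.p6, and 8 of 8 genes matched. The parental alleles were not separated. A gene of like level and a sequence within the rules above are not reported here.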

Additional observations from a re-analysis of the deposited data

How the results depend on the processing

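The ratios of Nppa, Nppb, Furin, Npr1 and Npr2 kept their call under the 6 alternatives run: Nppa ranged from -0.84 to -0.67, Nppb from 0.37 to 0.54, Furin from -0.33 to -0.16, Npr1 from -0.07 to 0.10 and Npr2 from -0.09 to 0.08. With spike-in scaling the log2 ratio of Corin turned to 0.065 (adjusted p of 0.0431, exact binomial test) and that of Npr3 was -0.08 (0.289), and with total counts Corin was at -0.11 (0.000245). These shifts follow from the scaling, which moved the median of all genes from -0.02 to -0.10 with total counts and to 0.08 with spike-ins. List medians nearer to 0 than these shifts changed side with it, but those of the atrial (-0.49 to -0.32), adipocyte (-2.05 to -1.79) and hypertrophy lists did not; that of the hypertrophy list ranged from 0.22 in the second table to 0.44 with spike-ins. With no filter on TPM, 1 gene passed 2-fold, Nppc with its 0 and 2 counts. By expected counts the mean shares of Npr1, Npr2 and Npr3 were 18.9%, 41.8% and 39.4%, because counts grow with transcript length. In the second table the share of Npr3 was 32.4%, the mean level was 188.2 TPM for Nppb, 14.6 for Npr2 and 54.9 for Corin, and the leading transcript held 88.1% of Npr2, 42.8% of Corin and 71.1% of Furin. The cause of those differences was not tested. Leaving out either library left 7 genes detected, put the share of Nppa at 72.7% or 86.0%, and gave levels equal to the other library's value; a ratio needs both. No paired analysis was possible because the libraries form 1 group. Depth limits Nppc, and because the libraries carry 1 donor identifier, their spread may not be that between animals.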

Other observations

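Cells other than muscle also carry natriuretic peptide receptors, and their markers differed unevenly between the libraries. Over all genes tested, 15.9% were lower and 10.7% higher in replicate 2 by the exact binomial test. All 10 fibroblast markers were tested, of which 3 were lower and 3 higher by this test. The collagen genes Col3a1, at 43.0 and 30.4 TPM (log2 ratio -0.56), Col1a2, at 25.5 and 17.3 (-0.47), and Col1a1, at 21.5 and 13.7 (-0.56), were the lower ones, while Dcn, the decorin gene, had 139 and 135 TPM (0.08). Of 14 endothelial markers 3 were lower and 5 higher, with a median of 0.06. Egfl7 had 37.95 and 44.1 TPM (0.33) and Kdr, a receptor for vascular endothelial growth factor, had 28.2 and 35.5 (0.45). Cdh5 passed as higher by counts (0.12) but was lower by TPM, at 41.7 and 39.7, and at 93.8 and 66.0 in the second table. Eng (0.07) and Pecam1 (0.005) did not pass. The 3 lower ones were Vwf and, chosen after their values were seen, Esam (-0.27) and Tie1 (-0.15). Of 7 endocardial markers tested, a list that includes Npr3, 4 were lower, Npr3 among them, and none higher. The list median, -0.17, was the ratio of Npr3 itself, and over the 6 others it was -0.16. Vwf, the von Willebrand factor gene, which is also a marker of other endothelium, had 31.6 and 24.7 TPM (-0.28) and Plvap 9.27 and 6.29 (-0.43). None of the 7 epicardial and mesothelial markers tested passed.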
